A study of Mus musculus with 3 samples.

Results

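The genes described here encode the contractile apparatus of heart muscle: the myosin thick filament, titin and the M-band, the actin thin filament, the Z-disc, and the intermediate filaments and intercalated disc proteins that tie the myofibrils together. They were chosen by name from a list of 34 symbols, with earlier results of these data known. All 34 were found among the 17583 genes of the deposited table, which may follow from that choice. Tagged ribosomes were pulled down from heart tissue of 3 EC-RiboTag mice, and the RNA they held was sequenced, giving 3 libraries of a single condition. The mice carried Cdh5-CreERT2, an inducible Cre recombinase under the promoter of vascular endothelial cadherin, and the Rpl22tm1.1Psam allele, in which Cre adds a hemagglutinin tag to the ribosomal protein Rpl22, so that the tag should appear in endothelial cells. By the labels the hearts were taken 7 days after coronary ligation, whereas the study's methods for this experiment mention no infarction. The labels give neither age nor sex, and whether whole hearts or a zone of them were used is not stated. The sample titles hold the letters Rz without explanation, and elsewhere the study uses RZ for the remote zone of infarcted hearts. For a PCR experiment it also describes RNA of EC-RiboTag hearts taken 7 days after infarction, from the remote zone and from the border and infarct zones. A remote zone origin is therefore possible. All mice shared the genotype, and no input, untagged or uninjured library was analysed here. Enrichment over the tissue and changes after infarction were therefore not measured in these libraries. By PCR the study compared immunoprecipitates of EC-RiboTag hearts with their input, with Myh6 as the marker of cardiomyocytes. Those PCR values were not used here.

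A sarcomere is the repeating unit of a myofibril, in which myosin thick filaments pull on actin thin filaments that are anchored in Z-discs, while titin spans from the Z-disc to the M-band in the middle and acts as a spring. Troponin and tropomyosin on the thin filament let calcium switch contraction on and off. These proteins are made mainly by cardiomyocytes, the contractile cells of the heart, although Tpm1, Pdlim5, Fhl2, Cryab and Des are also transcribed in smooth muscle or other cell types.

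The deposited values are read counts that the authors divided by a size factor for each library and rounded to whole numbers, and they are called normalized counts below. They summed to 7149102, 7158585 and 7268785, and from the spacing of the low values 1 read was worth 0.977, 1.06 and 0.961, which implies about 7317000, 6753000 and 7564000 reads in mice 1, 2 and 3. The 34 genes took 37121, 38339 and 39521 normalized counts, or 0.519%, 0.536% and 0.544% of each library. Their sum varied between mice by a coefficient of variation (CV, the SD as a percentage of the mean) of 3.13%. No member was near the detection limit of the table, since the lowest value of any member in any mouse was 196, for Mypn. Libraries were labelled as biological replicates. On average over the 9358 genes whose mean reached 200, their squared differences were 6.45 to 9.76 times those from counting alone. Over the 34 members the average was 15.3 to 27.3 times. For a given relative difference this ratio grows with the count of the gene, so Ttn, the highest member, weighs heavily in that average. Its share was not computed. In these bulk samples, fewer cells of a type and less RNA per cell cannot be told apart. RNA on tagged ribosomes likewise cannot be told apart from RNA carried along without a tag.

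The thick filament genes had a median CV of 9.07% between mice. Myh6, the alpha myosin heavy chain that drives contraction in the adult mouse ventricle, had 3428, 3701 and 3643 normalized counts (3591 ± 144, SD, n = 3) and ranked 19th of all genes by mean. Mybpc3, cardiac myosin-binding protein C, which braces the thick filament, had 1772, 1815 and 1700. Both genes lay within a narrow band in all mice, with a CV of 4.01% for Myh6 and 3.30% for Mybpc3. Myl2, the ventricular regulatory light chain of myosin, had 729, 701 and 605, and Myl3, the ventricular essential light chain, had 670, 605 and 566. Each light chain was lowest in mouse 3. Mylk3, the cardiac kinase that phosphorylates the regulatory light chain, had 943, 752 and 802, and Smyd1, a muscle methyltransferase that takes part in myofibril assembly, had 519, 534 and 418.

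Titin itself had the highest mean of all genes in the table. Ttn, at chr2:76534324-76812891 on the minus strand with a canonical transcript of 107543 bases in 347 exons, had 7379, 7743 and 10190 normalized counts (8437 ± 1529, n = 3). Mouse 3 stood apart from the other mice, and Ttn alone made up 19.9%, 20.2% and 25.8% of the counts of the 34 genes. Without it the remaining members summed to 29742, 30596 and 29331, with a CV of 2.16%. Of the myomesins, which cross-link thick filaments in the M-band, Myom1 had 1548, 1734 and 1694 and Myom2 had 1191, 959 and 1201. Fhl2, a LIM-domain protein that binds titin, was close to constant at 745, 727 and 667. Trim54 and Trim63 encode muscle RING-finger ubiquitin ligases that sit on the sarcomere. Trim54 had 426, 273 and 317 normalized counts, and Trim63 had 315, 211 and 202, each highest in mouse 1.

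The thin filament genes were the steadiest group, with a median CV of 5.77%. Tpm1, alpha-tropomyosin, had 1893, 2009 and 1888 normalized counts (1930 ± 68.5, n = 3). Of the cardiac troponin subunits, Tnnt2, which binds tropomyosin, had 1309, 1382 and 1407, Tnni3, the inhibitory subunit, had 644, 581 and 535, and Tnnc1, the calcium sensor, had 478, 469 and 415. Tnni3 and Tnnc1 were highest in mouse 1 and lowest in mouse 3, whereas Tnnt2 had the opposite order. Actc1, cardiac alpha-actin, had 1046, 998 and 927. Nebl, or nebulette, which lines the thin filament at the Z-disc, had 851, 943 and 768. Lmod2, a leiomodin that lengthens thin filaments, had 360, 389 and 379, and the actin-assembling formin Fhod3 had 499, 447 and 477, so that the mice lay close together in both.

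Among the Z-disc genes the spread was wider. Pdlim5, a PDZ and LIM scaffold protein, was the highest by count at 1997, 2119 and 1937 (2018 ± 92.7, n = 3). Cmya5, or myospryn, had the smallest spread of all members, at 935, 950 and 930, a CV of 1.11% that lies below the 3.26% expected from counting alone. Actn2, the alpha-actinin that cross-links thin filaments, had 859, 656 and 885 and was lowest in mouse 2. Ldb3, also called Cypher, which binds alpha-actinin, had 855, 1016 and 774. Tcap, the titin cap, had 633, 574 and 477, and Myoz2, a calcineurin-binding partner of alpha-actinin, had 637, 535 and 510. Csrp3, muscle LIM protein, kept to 465, 453 and 431. Synpo2l, a synaptopodin-like actin-binding protein, had 253, 343 and 281, and Mypn, or myopalladin, was the lowest member at 196, 241 and 223. Flnc, filamin C, an actin cross-linker that gathers at damaged sarcomeres, stood at 548 in mouse 1 against 944 in mouse 2 and 1011 in mouse 3.

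The genes of the intercalated disc and the desmin network were fewest and had the highest median CV of the groups, 17.7%. Des, the muscle intermediate filament desmin, had 1005, 798 and 816 normalized counts, and Cryab, the small heat shock protein that protects it, had 438, 373 and 418. Both were highest in mouse 1. Xirp1 and Xirp2 encode Xin repeat proteins, which bind actin at the intercalated disc. Xirp1 had 360, 557 and 695, and Xirp2 had 1195, 1807 and 1332, so that the paralogs peaked in different mice.

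**Figure D1:**
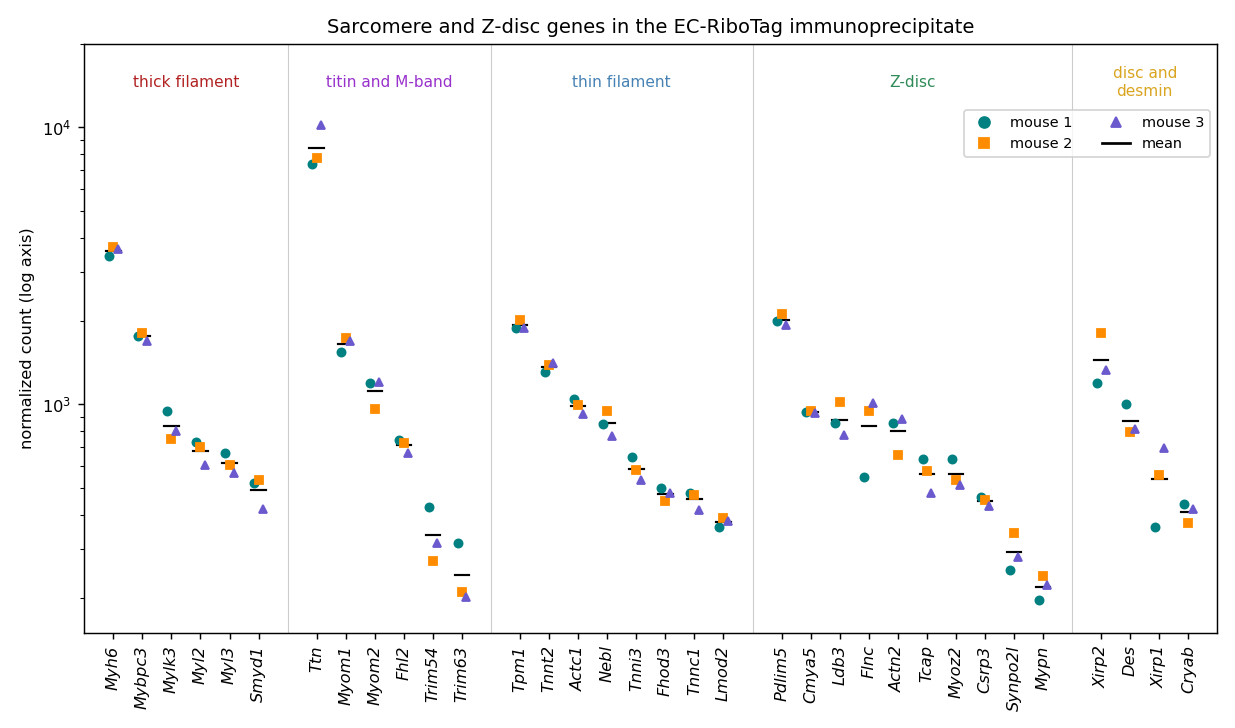
Normalized counts (log axis) of the 34 genes in each mouse, grouped by role, with a bar for the mean. Ttn stands above all other genes at 7379 to 10190, and the mice lie furthest apart for Flnc, Xirp1, Xirp2, Trim54 and Trim63.

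Longer transcripts give more reads, so levels of different genes were compared per kilobase (kb) of the canonical transcript. On this scale the members spanned 38.1-fold, from 23.1 normalized counts per kb for Mypn to 881 for Tpm1, with a median of 224. Tpm1 ranked 25th of all genes, and Myl2 at 819 and Tnnt2 at 769 followed. Myl3 (651), Tnni3 (640), Tnnc1 (630), Tcap (592) and Myh6 (575) came next, and no step among these 5 exceeded the larger SD of its pair. Below them lay Csrp3 (448), Mybpc3 (426), Fhl2 (392), Pdlim5 (375), Mylk3 (312), Myom1 (291), Des (279), Actc1 (272), Cryab (242) and Myom2 (205). Trim63 (168), Myoz2 (164), Lmod2 (157), Ldb3 (155), Smyd1 (149), Actn2 (125) and Xirp2 (121) formed the next stretch. The lowest levels per kb were those of Trim54 (98.9), Xirp1 (98.7), Nebl (95.0), Flnc (91.2), Cmya5 (79.2), Ttn (78.5), Fhod3 (75.9), Synpo2l (53.1) and Mypn (23.1). Of the 33 neighbouring pairs in the order, 10 differed by more than the larger SD of the pair, so most steps are not resolved with 3 mice. The order also rests on the length used. Per kb of the union of all exons, Tcap led at 592, followed by Mybpc3 at 423, Tnnc1 at 411 and Myh6 at 360.0, whereas Tpm1 had 239, Myl2 179 and Tnnt2 153, and Mypn was again the lowest at 20.3.

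By role, the median level per kb was 500 for the thick filament, 451 for the thin filament, 186 for titin and the M-band, 182 for the intercalated disc and desmin genes and 140 for the Z-disc. Per kb, titin fell from rank 1 to rank 8478 of all genes. The level per kb fell with transcript length across the 34 genes, with a Spearman rho of -0.77, and across the 9356 genes of known length whose mean reached 200 it was -0.57. The minimum mean of the 9356 genes removes short genes of low level per kb and so tilts their relation downward. No minimum was set for the 34 genes. Length is also the divisor of the level per kb. The mean itself rose with length, with a rho of 0.36 across the 34 genes and 0.30 across the 9356 genes. These points share libraries, and the values are descriptions. The authors removed duplicate reads by position, which limits how many reads a short transcript can give. Of the 34 genes, 8 (23.5%) had over 0.5 normalized counts per base, beside 5.83% of the 9356 genes. They were Tpm1, Myl2, Tnnt2, Myl3, Tnni3, Tnnc1, Tcap and Myh6, and how much duplicate removal lowered them was not tested.

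**Figure D2:**
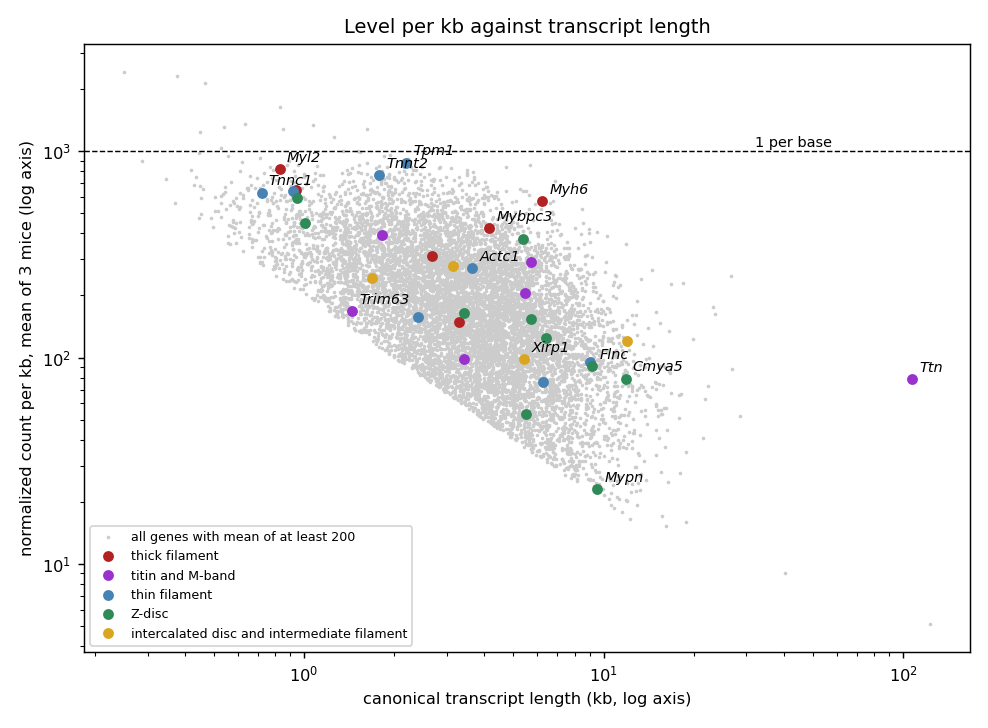
Level per kb (mean of 3 mice, log axis) against canonical transcript length (log axis) for the 34 genes, coloured by role, and for all genes whose mean reached 200 in gray; the dashed line marks 1 normalized count per base and the straight lower edge is the minimum mean. Tpm1, Myl2 and Tnnt2 lie near the upper edge, and Ttn at 107543 bases lies at 78.5 per kb.

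Endothelial cells are the labelled source of this RNA, and the median level of their defining markers was higher than that of the sarcomere genes. The median over 12 endothelial genes was 690 ± 13.4 normalized counts per kb (SD over 3 mice), with Eng, Pecam1, Esam, Egfl7 and Flt1 leading, and the median over the 34 sarcomere and Z-disc genes was 224 ± 21.4. Within each mouse the log2 ratio of the latter to the former was -1.56, -1.80 and -1.53, that is 0.324-fold on average. The ranges overlapped, since the endothelial genes spanned 461 to 809 per kb. Of the 34 members, 26 lay below all of them, while 8 lay within or above this span. By mean, Tpm1 and Myl2 exceeded every endothelial gene, but in mouse 3 Myl2 lay at 731 against 811 for Eng. Per kb of the union of all exons, Tpm1 at 239 and Myl2 at 179 lay below Eng at 362. Of the 12 endothelial genes, 10 lay above 0.5 per base, where duplicate removal can act most, and its effect on the ratio was not tested.

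By median, the sarcomere genes stood close to other genes of the cardiomyocyte and above the markers of fibroblasts, mural cells and leukocytes. The 12 cardiomyocyte genes outside the sarcomere, led by the calcium pump gene Atp2a2, myoglobin (Mb), the mitochondrial creatine kinase Ckmt2, Cox6a2 and phospholamban (Pln), had a median of 253 ± 11.1 per kb, with a log2 ratio of members to list of -0.18 ± 0.09. The median was 86.4 ± 13.9 for 8 fibroblast genes, 43.8 ± 6.96 for 9 mural cell genes and 23.0 ± 5.49 for the 7 listed of 8 leukocyte genes. The median of each of these lists lay below that of the sarcomere genes in every mouse, by 2.61-fold, 5.14-fold and 9.91-fold on average. Single genes overlapped, since these lists reached up to 188, 134 and 72.6 per kb and the members went down to 23.1. Of 9 fast skeletal muscle genes, 5 were not in the table, among them the fast myosin heavy chains, and the 4 listed had a median of 13.1 ± 2.80 per kb. The highest of these was Mylpf at 100, 48 and 69 normalized counts.

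A further 28 sarcomere genes that were not among the 34 were counted for comparison, and 27 of them were listed. Their median was 140, 119 and 123 per kb in mice 1, 2 and 3, below that of the members, with a log2 ratio of members to list of 0.77, 0.75 and 0.92. The members and this list were chosen with earlier results of these data known, so the difference may rest on the choice of genes. The highest were Ankrd1, a stress-induced ankyrin repeat protein that binds titin, at 478 per kb, the co-chaperone gene Bag3 at 391, Tpm3, another tropomyosin, at 380, the small heat shock protein gene Hspb7 at 328 and the actin-binding nexilin gene Nexn at 263. The lowest was Myoz1 at 1.55 per kb. Of the 27 genes, 14 reached a mean of 200 and 2 of these 14 had a CV over 20%.

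**Figure D3:**
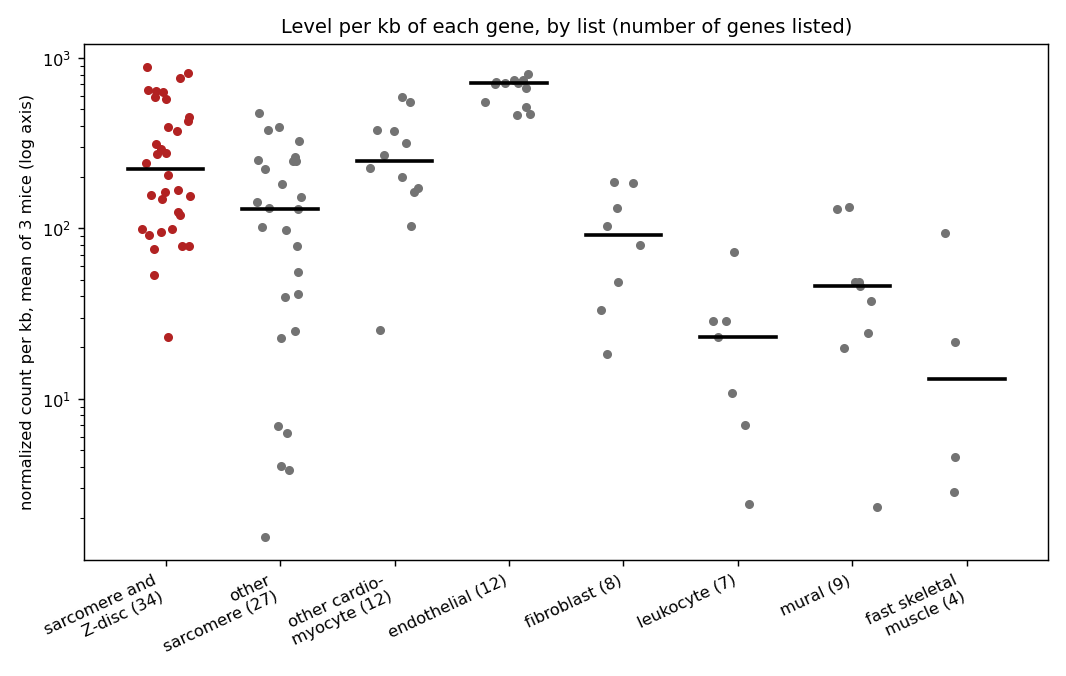
Level per kb (mean of 3 mice, log axis) of each gene in the 34 sarcomere and Z-disc genes and in 7 other lists, with the number listed in brackets and a bar for the median of the genes drawn. The sarcomere genes overlap the other cardiomyocyte genes, lie mostly below the endothelial genes and reach above the fibroblast, leukocyte, mural and fast skeletal muscle genes.

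Many sarcomere genes have paralogs that serve another muscle, another stage or another cell type, and some have a paralog in the same muscle. The ratio within a mouse is free of the scaling of libraries, and 17 pairs of paralogs could be formed per kb with a pseudocount of 0.5. With 3 mice the exact sign-flip permutation test (two-sided) cannot go below p = 0.25, and the adjusted p over the 17 pairs was 0.304 where all mice had the same sign, so no pair could pass the threshold. The member was higher than its partner in 3 of 3 mice in 13 pairs. The sizes and spreads are therefore given as measurements.

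In every mouse, Myh6, Myl2, Myl3, Tnni3 and Tnnt2 exceeded the fetal, atrial or slow skeletal counterpart they were paired with. Myh6 exceeded Myh7, the beta myosin heavy chain that is more abundant in fetal and stressed mouse hearts, by a log2 ratio of 3.19, 2.32 and 2.32, a mean of 6.10-fold. Myh7 itself had 369, 729 and 716 normalized counts, lowest in mouse 1, while Myh6 differed by at most 1.08-fold between mice. Myl2 exceeded the atrial light chain Myl7 by 1.94, 5.14 and 2.06 on the log2 scale. Mouse 2 set this spread, with only 14 normalized counts of Myl7 against 138 and 105 in the others. Myl3 exceeded the atrial Myl4 by 1.88 ± 0.51, and Myl4, at 179, 116 and 219, was also lowest in mouse 2. Tnni3 exceeded the slow skeletal Tnni1 by 6.77 ± 0.93, although Tnni1 had only 4, 13 and 4 normalized counts. Tnnt2 exceeded the slow skeletal Tnnt1 by 2.58 ± 0.29, or 1.37 with the union of exons. Tnnc1 had no partner to compare, because its fast skeletal paralog Tnnc2 was not in the table.

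The remaining pairs ranged from large differences to none that was resolved. Nebl exceeded its giant skeletal relative Neb by 4.59 ± 0.52, or 3.67 with the union of exons. Tpm1 exceeded Tpm2 by 4.52 ± 0.39, or 3.01 with the union of exons and 3.60 with the shortest transcript of the same coding sequence. Lmod2 exceeded Lmod3 by 2.81 ± 0.34. Trim63 exceeded Trim55, the other muscle RING-finger gene, by 1.57 ± 0.42 and Trim54 exceeded it by 0.81 ± 0.47, and with the union of exons these were 2.25 for Trim63 and 1.94 for Trim54. Pdlim5 was above Pdlim3 by 0.75 ± 0.28 and Myom1 was above Myom2 by 0.51 ± 0.25. Myoz2 is set beside Myoz1 by value only, since Myoz1 had 0, 2 and 4 normalized counts. Actc1 and the skeletal alpha-actin Acta1 lay close together, with log2 ratios of 0.10, 0.28 and -0.02, and their order changed with the mouse (exact p = 0.5). The same held for Actn2 against the non-muscle alpha-actinin Actn1, at 0.18, -0.49 and -0.27, and for Xirp1 against Xirp2, at -0.59, -0.56 and 0.20. Flnc was the member below its partner in all mice, with log2 ratios of -1.04, -0.72 and -0.84 to the widely expressed filamin A gene Flna.

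**Figure D4:**
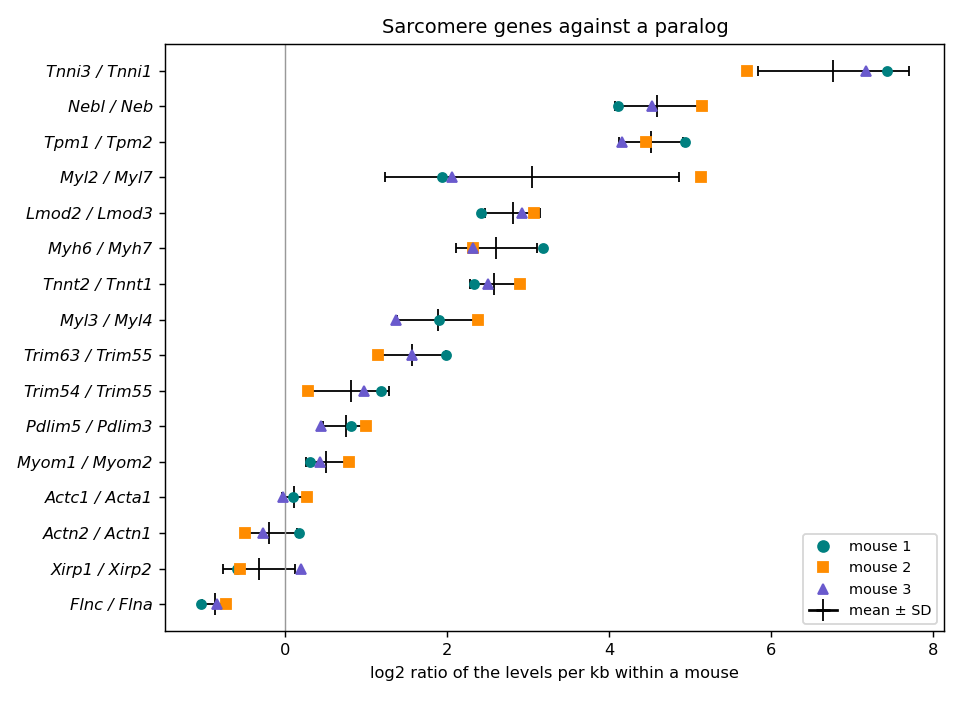
Log2 ratio of levels per kb between a sarcomere gene and a paralog within each mouse, with the mean ± SD over 3 mice; the pair of Myoz2 and Myoz1 is left out because Myoz1 is near 0. Points right of the line at 0 mean that the first gene is higher, and the pairs run from Tnni3 over Tnni1 at a mean of 6.77 to Flnc over Flna at a mean of -0.87.

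Myh6 and Myh7 lie next to each other on chromosome 14 and share long stretches of sequence, which bears on how their reads could be counted. Their coding sequences were identical at 5320 of 5802 aligned bases (91.7%), with 11 identical runs of at least the read length of 72 bases, the longest being 245 bases. Of the 72-base windows of the canonical Myh6 transcript, 972 of 6173 (15.7%) also occurred in Myh7, and for Myh7 it was 973 of 6064. Reads from such windows match both genes and were removed as multi-mapping, in nearly equal shares for both genes. A stretch that cannot be assigned and the stretch where the genes differ most are shown from GRCm39 (minus strand, 5′ to 3′), with the differing bases in capitals. The first lies at chr14:55201413-55201484 in Myh6 and at chr14:55229757-55229828 in Myh7. The second lies at chr14:55189722-55189793 in Myh6 and at chr14:55217797-55217868 in Myh7, and differs at 24 of 72 bases.
Myh6 and Myh7, identical stretch: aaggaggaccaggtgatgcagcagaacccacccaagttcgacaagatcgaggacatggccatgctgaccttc
Myh6, most different stretch: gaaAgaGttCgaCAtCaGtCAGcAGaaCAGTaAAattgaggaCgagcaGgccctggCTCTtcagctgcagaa
Myh7, most different stretch: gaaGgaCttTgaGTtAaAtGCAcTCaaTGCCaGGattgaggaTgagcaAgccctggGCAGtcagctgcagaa

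In the members other than Myh6, at most 1.48% of windows, in Actn2, occurred elsewhere in the genome or in another transcript, and no other gene overlapped a canonical transcript on the same strand.

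Between mice, the sarcomere genes ranged from nearly constant to clearly uneven. The median CV of the 34 genes was 9.92%, beside 7.37% for all genes whose mean reached 200. Under 10% lay 17 members, and by that median most of all these genes lay under 10% too. In 3 members, Cmya5, Csrp3 and Lmod2, the CV was below that of counting alone, and the share of all genes below it was not computed. A gene was called variable at a CV over 20%, and 5 of 34 members (14.7%) were called, beside a background of 8.00% of 9358 genes. They were Xirp1 (31.3%), Flnc (30.0%), Trim63 (25.9%), Trim54 (23.3%) and Xirp2 (22.2%). Whether the list differs from the background was not tested. Mouse 1 decided most of these calls, because without it 2 members were called, Actn2 and Xirp2, beside 4.84% of genes, whereas without mouse 2 there were 5, beside 9.86%, and without mouse 3 there were 6, beside 8.71%. Without mouse 2, Ttn was called and Xirp2 was not, and without mouse 3, Synpo2l was added.

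The variable genes moved in separate directions. The ubiquitin ligase genes Trim54, at chr5:31274056-31294974, and Trim63, at chr4:134042431-134056940, were both 1.56-fold higher in their highest mouse, mouse 1, than in their lowest. Flnc, at chr6:29433255-29461882, and Xirp1, at chr9:119842821-119852664, were both lowest in mouse 1, and their highest values were 1.84-fold and 1.93-fold the lowest. Xirp2, at chr2:67004178-67356959, was highest in mouse 2 by 1.51-fold over mouse 1, where it was lowest. The summed markers of other cell types also differed in mouse 1: the 8 fibroblast genes summed to 2837, 3387 and 3783 normalized counts, the 9 mural cell genes to 1622, 1927 and 2326 and the 7 leukocyte genes to 447, 681 and 681. These sums had their lowest value in mouse 1, as Flnc, Xirp1 and Xirp2 did. Lowest there were 6 of 8, 6 of 9 and 6 of 7 genes. For all genes the share lowest in mouse 1 was not computed. Flna, the widely expressed filamin gene, had 1242, 1718 and 1990. The 12 cardiomyocyte genes outside the sarcomere summed to 13070, 12609 and 12951, with 9 of 12 highest in mouse 1, as Trim54 and Trim63 were. The 12 endothelial genes summed to 28759, 27701 and 27593, with 6 of 12 highest in mouse 1. Of the 11956 genes whose mean reached 50, 37.7% were highest in mouse 1. The part of these lists in the result was not tested.

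Of the 34 members, 15 (44.1%) were highest in mouse 1, beside 37.7% of the 11956 genes whose mean reached 50. In mouse 2, 13 members (38.2%) were highest, beside 32.1%, and in mouse 3, 6 members (17.6%) were highest, beside 30.2%. The median log2 deviation of the members from their own mean was 0.06, 0.03 and -0.06 in mice 1, 2 and 3, beside 0.00, 0.00 and -0.01 for all genes.

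Transcript length accompanied the deviations of mice 1 and 3, in opposite directions. From the shortest to the longest length class of all genes, the median deviation went from 0.06 to -0.18 in mouse 1. In mouse 3 it went from -0.09 to 0.14. There the log2 deviation had a Spearman rho with length of 0.46 across the 34 genes and 0.47 across the 9356 genes. For mouse 1 no rho was computed. The 5 members of up to 1 kb, Myl2, Myl3, Tnni3, Tnnc1 and Tcap, had median deviations of 0.13, 0.03 and -0.13 in mice 1, 2 and 3, beside 0.06, 0.02 and -0.09 for the 538 genes of that length. At the other end, Ttn deviated by -0.19, -0.12 and 0.27, beside -0.18, -0.01 and 0.14 for the 32 genes over 16 kb. Once the median of the length class was subtracted, Ttn deviated by -0.01, -0.12 and 0.13. In mouse 1, Flnc went from -0.61 to -0.51 and Xirp1 from -0.58 to -0.55, while Trim54 went from 0.33 to 0.32 and Trim63 from 0.38 to 0.33. The same 5 members were called variable on that scale.

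**Figure D5:**
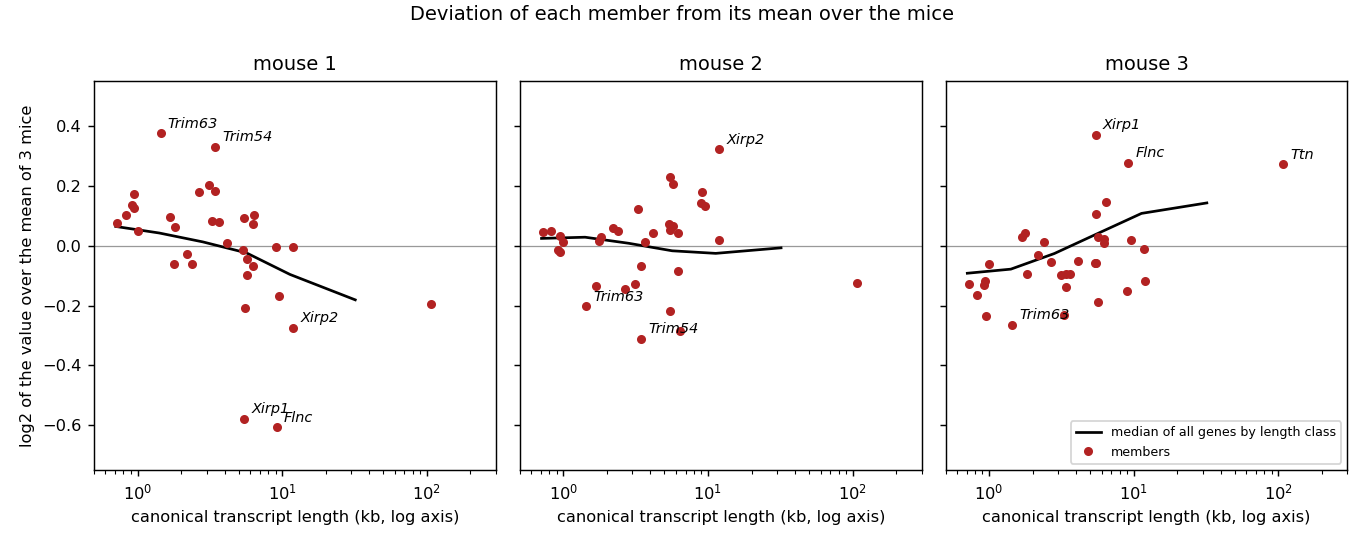
Log2 deviation of each of the 34 genes from its mean over the mice, against canonical transcript length (log axis), with the median of all genes in each length class as a line. In mouse 1 the line falls with length, and Flnc and Xirp1 lie far below it and Trim54 and Trim63 above it. In mouse 3 the genes and the line rise with length up to Ttn at 0.27.

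The sequences just upstream of the transcript starts were searched for short motifs that are known from muscle promoters: the M-CAT site, bound by TEAD factors, the MEF2 site and the CArG box of serum response factor. In the 250 bases upstream of the canonical start, on either strand, CATTCC, the core of the M-CAT site, occurred in 11 of the 34 genes (32.4%), beside 11.6% of the 14236 genes with such a window. The MEF2 site occurred in 3 members (8.82%), beside 1.29%, and the CArG box in 2 (5.88%), beside 1.22%. TATAAA, the letters searched for the TATA box, occurred in 4 members (11.8%), beside 7.54%. At 40 to 20 bases upstream on the sense strand, these letters occurred in 0 of the 34 members, beside 0.625% of genes. AGATAA, a site of cardiac zinc-finger factors, occurred in 3 (8.82%), beside 7.23%. The M-CAT core was found upstream of Des, Fhod3, Myh6, Myl3, Mylk3, Mypn, Tnnc1, Tpm1, Trim54, Trim63 and Ttn. A match of letters is no evidence that a factor binds there, and these libraries do not measure binding.

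Trim54, Trim63, Myh6 and Tnnc1 are shown as examples of genes with the M-CAT core within 100 bases of the start. Members with the core there did not share an order of the mice, since Trim54 and Trim63 were highest in mouse 1 and Myh6, Mypn and Ttn were lowest in it. The 100 bases before each start are shown 5′ to 3′ in the direction of transcription, from GRCm39, with the motif in capitals. GGAATG is the core read on the opposite strand. They lie at chr5:31273811-31273910 (plus strand) for Trim54, chr4:134042293-134042392 (plus) for Trim63, chr14:55204226-55204325 (minus) for Myh6 and chr14:30930169-30930268 (plus) for Tnnc1.
Trim54: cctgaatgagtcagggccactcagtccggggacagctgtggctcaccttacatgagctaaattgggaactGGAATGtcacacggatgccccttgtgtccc
Trim63: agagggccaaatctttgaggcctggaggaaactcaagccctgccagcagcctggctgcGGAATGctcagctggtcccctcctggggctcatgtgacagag
Myh6: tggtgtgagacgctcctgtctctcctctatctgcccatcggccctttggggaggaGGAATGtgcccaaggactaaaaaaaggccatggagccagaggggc
Tnnc1: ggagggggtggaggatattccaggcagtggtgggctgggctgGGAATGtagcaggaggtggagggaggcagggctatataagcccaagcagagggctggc

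The MEF2 site was found upstream of Mybpc3, Synpo2l and Xirp2, and the CArG box upstream of Myl3 and Myom1. Mybpc3, Xirp2 and Myl3 are shown as examples in the same way, with the motif in capitals, at chr2:90948389-90948488 (plus strand) for Mybpc3, chr2:67276246-67276345 (plus) for Xirp2 and chr9:110592609-110592708 (plus) for Myl3. Mybpc3 and Myl3 were steady between mice, with CVs of 3.30% and 8.56%, whereas Xirp2 was among the variable genes at 22.2%.
Mybpc3: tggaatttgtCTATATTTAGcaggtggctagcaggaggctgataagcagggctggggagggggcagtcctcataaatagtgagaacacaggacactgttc
Xirp2: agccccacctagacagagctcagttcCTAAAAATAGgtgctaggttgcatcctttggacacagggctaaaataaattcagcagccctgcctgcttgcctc
Myl3: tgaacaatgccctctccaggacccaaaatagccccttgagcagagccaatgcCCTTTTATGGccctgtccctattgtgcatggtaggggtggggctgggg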

How the data were processed

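RNA bound to hemagglutinin-tagged ribosomes was sequenced from 3 hearts as single-end reads of 72 bases. Per the submitters' processing notes and the study's methods, the authors trimmed reads with Trimmomatic 0.39, aligned them with STAR 2.7.11a to mm39, removed duplicates with Picard 3.1.1, dropped reads from ribosomal or mitochondrial genes and reads that map to several places, counted reads per gene on the matching strand with featureCounts 2.0.4 and normalized with DESeq2 1.36.0. The deposited unit is a score: the authors' normalized counts, rounded to whole numbers, which are not raw counts, so no count model was fitted. In the deposited table every gene reached at least 4 in some mouse, and a gene not listed was not analysed here.

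From these values the mean, SD and CV over mice, levels per kb and within-mouse log2 ratios (pseudocount 0.5) were computed with Python 3.11.15, numpy 2.4.6, pandas 2.3.3 and scipy 1.17.1. Lengths, starts and sequences come from the GENCODE annotation and genome of GRCm39, which held 17475 of the 17583 identifiers and is newer than the authors' annotation. Gene coordinates are those of the deposited table, and those of printed sequences come from GRCm39. The steps were tested on simulated data. All 34 members are named, with the partners of fixed pairs and up to 5 genes of each other list with the highest level per kb. The members and lists were chosen with earlier results of these data known. Alternatives were trimmed-mean scaling, equal totals, other lengths, other minimum means, another pseudocount, the mean of logs for lists, and each mouse left out in turn. Use of the shortest transcript with the same coding sequence for lengths and subtraction of the length class were added after seeing the data. Proteins were not compared.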

Additional observations from a re-analysis of the deposited data

How the results depend on the processing

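Counts of members called variable ranged from 2 to 6 when a mouse was left out (2 without mouse 1), beside 4.84% to 9.86% of all genes, and were 5 under both scalings and the length-class subtraction, beside 7.48% to 8.01%. A minimum mean of 50 cannot change the count, since every member passed 200. The levels per kb depended on the length used. With the union of all exons in place of the canonical transcript, the median per kb was 104.7 for the 34 genes, 52.5 for the other sarcomere genes, 126.1 for other cardiomyocyte genes, 381.1 for endothelial, 48.9 for fibroblast, 10.3 for leukocyte, 28.8 for mural and 7.83 for fast skeletal muscle genes, and the log2 ratio of the 34 genes to the endothelial genes was -1.86. The union is longer than any single transcript, so these values fall by construction. With the mean of log2 values in place of the median, the level was 67.4 for other sarcomere, 219.3 for other cardiomyocyte, 641.1 for endothelial, 14.9 for leukocyte and 33.6 for mural genes. With at least 10 in every mouse, fast skeletal muscle genes were at 57.9, since fewer genes remained. All 34 member levels stayed within 1 SD under trimmed-mean scaling and equal totals. No pair reversed the sign of its mean under the lengths, pseudocounts and left-out mice tried, but sizes moved with the union of exons, for example from 1.88 to 2.95 for Myl3 over Myl4, from 0.12 to 0.62 for Actc1 over Acta1 and from -0.19 to -0.56 for Actn2 over Actn1. Myl2 over Myl7 was 2.00 without mouse 2, against 3.04. Counts of members highest in each mouse moved by at most 1 under the scalings and the length-class subtraction. No paired analysis was possible because all 3 libraries belong to a single group.

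Depth limits Myoz1, Tnni1 and other partners of few counts. Duplicate removal can limit the levels of short, abundant genes, and how far it did so was not tested. With 3 mice, the smallest p of the exact permutation test was 0.25. The reads of Myh6 and Myh7 that fall in shared stretches were not counted. The annotation used for lengths is not the authors' own.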
